A study of Rattus norvegicus with 28 samples.

Results

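Adding psilocybin to ketanserin was examined in 8 of the 28 libraries of an RNA sequencing study of rat prefrontal cortex. The 4 libraries given both drugs were all those labelled ketanserin 3 mg/kg with psilocybin 3 mg/kg, and the 4 given ketanserin alone were all those labelled ketanserin 3 mg/kg with vehicle. Animals were adult male Sprague-Dawley rats, an outbred stock, aged 8 weeks on arrival. Each received an intraperitoneal injection of ketanserin in 5% Tween-80 and then psilocybin in saline, or saline alone in the ketanserin group, and the tissue was taken 24 h later. For the difference of differences, 4 libraries with psilocybin 3 mg/kg alone and 4 with both vehicles were used, and for dose, 4 with 1 mg/kg of each drug and 4 with ketanserin 1 mg/kg alone. Tissue pieces were bulk samples, so that fewer cells of a type and less RNA per cell cannot be told apart in any result below.

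Psilocin, the active product of psilocybin, is an agonist at several serotonin receptors. The serotonin 2A receptor, encoded by Htr2a and abundant on pyramidal neurons of the prefrontal cortex, carries many of its acute effects. Ketanserin is an antagonist of that receptor and also binds the serotonin 2C receptor, alpha-1 adrenergic receptors and the histamine H1 receptor. Activation of cortical neurons induces immediate early genes within minutes, and a second wave of synaptic and neurotrophin genes follows, so that a sample taken the next day is late for both. The comparison asks which transcripts differ on the day after psilocybin when it follows ketanserin.

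Libraries held 12783067 to 18538414 counts with both drugs and 14216493 to 17456564 with ketanserin alone. The smallest was replicate 4 of the group given both drugs, which stood apart from the other 27 libraries of the study. Its median correlation with the others was 0.900, against 0.951 to 0.974 for the others. In that library 81 genes had a count of 0 although each other library had at least 20, whereas the other libraries had 0 or 1 such genes. Unnamed assembled transcripts took 4.46% of its counts, against 1.99 to 2.53% elsewhere. Results that rest on this library, called the distant library below, are given with and without it. Neuronal, glial and vascular markers of cortex were present. The records of Cldn5, an endothelial tight junction gene, and of Npy, an interneuron peptide, held at most 0 and 4 counts in any of the 8 libraries and were not tested.

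No gene rose or fell past the threshold when psilocybin was added to ketanserin. With edgeR's quasi-likelihood test on 17404 genes, 0 genes were called higher (0%) and 0 lower (0%) at an adjusted p under 0.05, and the smallest adjusted p was 0.375. At an unadjusted p under 0.05 there were 307 higher genes (1.76% of those tested) and 287 lower genes (1.65%), and the median log2 fold change was 0.01. DESeq2 called 1 gene higher, LOC100911575, and 0 lower. Limma with library quality weights called 1 higher, an unnamed transcript, and 0 lower. Without the distant library edgeR again called 0 of 17671 genes, with a smallest adjusted p of 0.28, and 493 genes lay under an unadjusted p of 0.05. Of these, 219 were among the 594 found with it. CPM is a count scaled by the library total and its TMM factor. Where the mean log2 CPM reached 0, the 95% interval reached 0.439 log2 units to either side in the median gene, a factor of 1.36. This interval is for 1 gene, without adjustment over all genes tested. Smaller differences were mostly not detectable with 4 animals a group at this depth. Larger ones also stayed uncalled, such as the log2 fold change of -0.98 for Dock8.

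Among genes with a symbol other than a LOC or similar number, those of lowest p below ketanserin alone included a clock factor, an RNA-binding protein and ribosome assembly factors, all with changes below the threshold. Hnrnpa0, which encodes an RNA-binding protein of the hnRNP family (chromosome 17, 6909728 to 6910630, rn6), had 140, 133, 143 and 131 CPM with both drugs, against 176, 166, 187 and 165 CPM with ketanserin alone. The groups did not overlap, and the log2 fold change was -0.34 (SE 0.0857) and -0.32 without the distant library. Its edgeR p was 0.000483 and its adjusted p was 1. Non-overlapping groups were found for 182 lower genes (1.05% of those tested) and 113 higher genes (0.649%), and the genes named here as not overlapping are among them.

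Arntl, also called Bmal1, encodes the transcription factor that pairs with CLOCK to drive the circadian transcription loop (chromosome 1, 178039063 to 178137465, rn6, plus strand). It had 38.0, 39.3, 37.0 and 38.6 CPM with both drugs, against 47.1, 51.8, 44.6 and 45.6 CPM with ketanserin alone. All 4 libraries with both drugs lay below all 4 with ketanserin alone, the distant library included. Its log2 fold change, with and without the distant library alike, was -0.31 (with it, SE 0.0930 and 95% interval -0.50 to -0.11), with an edgeR adjusted p of 1 in both. Psilocybin alone at 3 mg/kg, at 35.0, 42.0, 44.8 and 40.4 CPM, also had a lower mean than vehicle, at 50.4, 40.3, 45.7 and 48.8 CPM, but those groups overlapped. Their log2 fold change was -0.19. Adding psilocybin to ketanserin at 1 mg/kg gave 0.04.

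Arntl transcription is known to be controlled through ROR elements in its promoter, where REV-ERB proteins (Nr1d1, Nr1d2) repress and ROR proteins activate. The 250 bases before the RefSeq start of the gene on the GRCr8 build, chr1:176766078-176766327 on the plus strand, are shown because Arntl was the only gene of the clock list under an unadjusted p of 0.05 in edgeR. Capitals mark matches to TAGGTCA and TAGGTTA, forms of the ROR element, searched on both strands.
Arntl promoter: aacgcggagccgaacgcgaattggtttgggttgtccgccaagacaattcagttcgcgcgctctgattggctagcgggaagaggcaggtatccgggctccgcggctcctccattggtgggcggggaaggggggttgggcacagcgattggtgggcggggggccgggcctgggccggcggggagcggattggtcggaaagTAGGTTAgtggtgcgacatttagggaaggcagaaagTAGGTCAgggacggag
TAGGTTA begins 52 bases and TAGGTCA 16 bases before the start, both on the plus strand, and the matches do not overlap. Over the same window, TAGGTCA was present in 2.26% and TAGGTTA in 1.42% of 33469 RefSeq promoters, and both in 14 promoters (0.0418%). A match describes letters and is no evidence of binding.

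The genes of proteins that act on these elements overlapped between the groups. Nr1d1, which encodes the repressor REV-ERB alpha, had 109, 149, 144 and 117 CPM with both drugs, against 116, 148, 114 and 122 CPM with ketanserin alone (log2 fold change 0.06, SE 0.135, and 0.10 without the distant library). Nr1d2, its paralog, had a log2 fold change of 0.07 (SE 0.136) and -0.01 without that library. The ROR activators followed the distant library. Rorb had 2.63, 3.79, 2.79 and 10.3 CPM with both drugs, against 3.98, 3.72, 6.01 and 3.65 CPM with ketanserin alone, and a log2 fold change of 0.16 (SE 0.452) with the distant library and -0.50 without it. Rora, counted among the thalamus markers and not on the clock list, had 0.948, 0.203, 0.558 and 6.10 CPM, against 0.522, 0.755, 0.760 and 0.315 CPM. Its log2 fold change was 1.70 (SE 0.691, unadjusted p 0.021, edgeR adjusted p 1) and -0.03 without that library. Of 18 circadian genes tested, 12 lay above ketanserin alone and 6 below, with a median of 0.05, and without the distant library 7 lay above and 11 below, with a median of -0.08. Dbp, a PAR bZIP factor driven by CLOCK and BMAL1, had 210, 227, 243 and 119 CPM with both drugs, against 174, 179, 136 and 173 CPM with ketanserin alone. The distant library was the only one of the 4 below the ketanserin libraries' range, and leaving it out moved the log2 fold change of Dbp to 0.45, against 0.27 with it.

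Other low genes also had non-overlapping groups. Dock8, an activator of the GTPase Cdc42 best known from immune cells, had 2.16, 1.96, 3.47 and 2.13 CPM with both drugs, against 4.37, 6.10, 4.77 and 3.97 CPM with ketanserin alone (log2 fold change -0.98, SE 0.259). Of the microglia markers, 3 of 10 lay above and 7 below ketanserin alone (median -0.07), and 5 above and 5 below without the distant library (median 0.00). Their summed level was 272 to 356 CPM with both drugs and 288 to 336 CPM with ketanserin alone. Ptpro, a receptor-type tyrosine phosphatase, had 18, 14.3, 20.0 and 13.6 CPM, against 30.3, 20.0, 21.1 and 25.5 CPM (-0.56, SE 0.150). The groups did not overlap before rounding, though 1 library of each rounded to the same level. Utp14a, a factor of small ribosomal subunit assembly, had 12.5, 10.4, 10.2 and 9.30 CPM with both drugs, against 14.2, 14.5, 15.2 and 15.8 CPM with ketanserin alone (-0.49, SE 0.137). Rrs1, which acts in large subunit assembly, had 16.8, 14.9, 18.4 and 20.0 CPM, against 23.5, 22.6, 20.3 and 20.9 CPM (-0.32, SE 0.104). Zc4h2, a zinc finger gene of neural development, differed by -0.47 (SE 0.128) and Prr36 by -0.27 (SE 0.0844), again without overlap. The edgeR adjusted p of each was 1, with and without the distant library.

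Among the genes that lay above ketanserin alone, Nup188 varied little within each group. It encodes a scaffold protein of the nuclear pore and had 25.9, 23.4, 24.4 and 24.7 CPM with both drugs, against 20.8, 18.6, 20.0 and 18.6 CPM with ketanserin alone. The groups did not overlap, and the log2 fold change was 0.34 (SE 0.0933) and 0.33 without the distant library. Vma21, which assembles the proton pump of acidic organelles, had 4.32, 7.17, 4.65 and 5.11 CPM, against 3.52, 2.85, 2.07 and 3.97 CPM (0.77, SE 0.240, and 0.79 without the distant library). Neither depended on that library, and the edgeR adjusted p was 1 for both. Against vehicle, Nup188 differed by -0.27 with ketanserin alone and by 0.07 with both drugs. Vma21 differed from vehicle by -0.44 and 0.34.

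In 3 other high genes the distant library was far above its own group. Plin3, a lipid droplet coat protein, had 3.69, 3.72, 3.41 and 8.84 CPM with both drugs, against 2.22, 1.51, 2.76 and 2.46 CPM with ketanserin alone. Leaving the distant library out lowered its log2 fold change to 0.69, against 1.13 with it. Myom2, a protein of the sarcomere M-band, had 2.53, 2.70, 3.78 and 8.69 CPM, against 1.24, 1.39, 2.21 and 2.21 CPM (0.77 without that library and 1.32 with it). Pf4, a platelet chemokine, had 1.74, 2.37, 2.48 and 5.26 CPM, against 1.24, 0.697, 1.66 and 0.693 CPM (1.03 and 1.46). In all 3 the groups did not overlap with the distant library included, which leaving it out could not change.

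Blood transcripts lay in the same direction. All 4 of 4 tested blood genes were above ketanserin alone, with a median log2 fold change of 0.50 and 0.30 without the distant library, against 0.01 over all genes tested in both. Their summed level was 601, 420, 495 and 468 CPM with both drugs, against 367, 380, 479 and 390 CPM with ketanserin alone, with no marker of the 4 at 0. Slc4a1, the red cell anion exchanger, had 10.3 CPM in the distant library and 2.23 to 4.22 CPM in the rest of its group, against 1.26 to 4.28 CPM with ketanserin alone, and differed by 0.88 (SE 0.447) with that library and 0.27 without it. Hbb, a beta globin, differed by 0.28 (SE 0.294) and by 0.32 without it. Stom, a membrane protein abundant in red cells, had 7.80, 10, 8.38 and 11.1 CPM with both drugs, against 7.37, 4.76, 4.35 and 6.36 CPM with ketanserin alone (0.70, SE 0.201), without overlap. Krt8, an epithelial keratin, differed by 1.61 (SE 0.474) and by 1.44 without the distant library. Its levels were low, at 1.22 to 3.28 CPM with both drugs and 0.290 to 1.17 CPM with ketanserin alone. Against vehicle Krt8 differed by -1.50 with ketanserin alone and by 0.12 with both drugs. The part of blood or of other tissue in the levels of Pf4, Stom, Krt8 and Myom2 was not tested, and the skeletal muscle genes Acta1 and Myh1 differed by 0.14 (SE 0.134) and 0.37 (SE 0.255), each by 0.23 without the distant library.

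**Figure D1:**
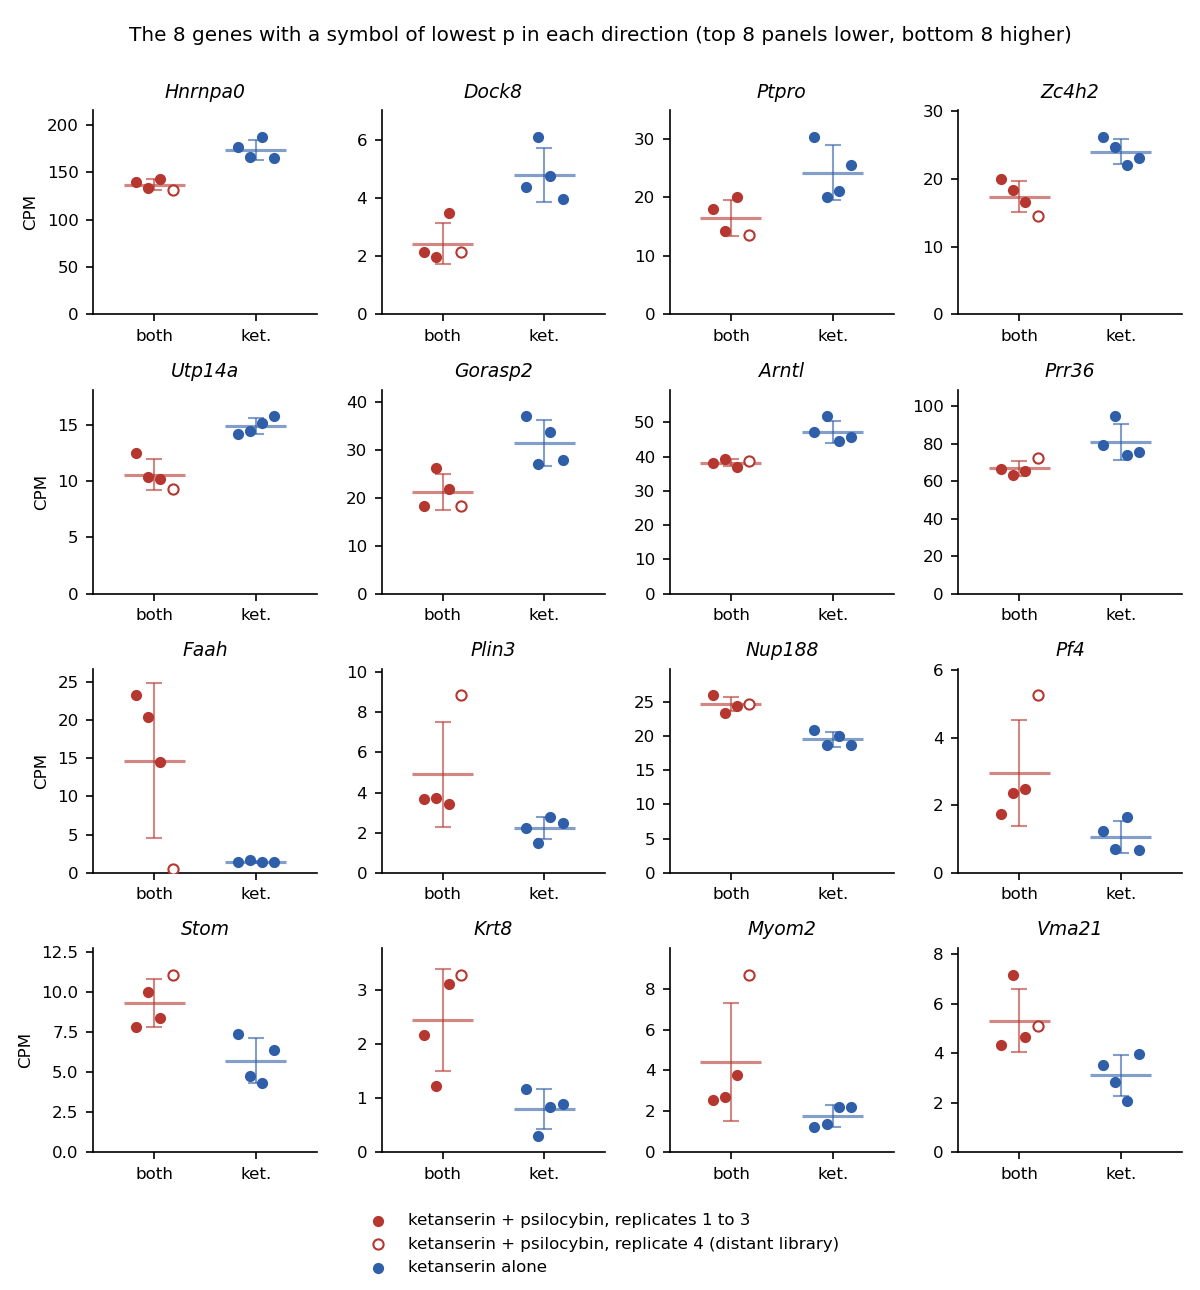
CPM per library, linear axis from 0, of the 8 genes of lowest p below ketanserin alone (upper 8 panels) and the 8 above it (lower 8 panels), among genes with a symbol other than a LOC or similar number, a mean log2 CPM of at least 0 and the same sign without the distant library; red points are libraries with both drugs, the open red point the distant library, blue points ketanserin alone, and the line and bar the mean and SD of 4. Arntl, Hnrnpa0 and Nup188 separate the groups with the distant library among its own group, whereas in Plin3, Pf4 and Myom2 it lies above and in Faah below the rest of its group.

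Faah, which encodes the hydrolase that ends signalling by the endocannabinoid anandamide, lay at separate levels in the groups once its records were joined. The deposited table holds 2 records of this symbol on chromosome 5, at 134852875 to 134871775 and at 134331929 to 134348995 (rn6). The first record had 23.2, 20.4, 14.5 and 0.457 CPM with both drugs, against 1.37, 1.68, 1.38 and 1.45 CPM with ketanserin alone. The second had 0.632, 0.406, 0.434 and 13.7 CPM, against 0.326, 0.290, 0.484 and 0.315 CPM. The distant library thus carried its Faah counts in the other record. Summed over both records, Faah was at 23.9, 20.8, 15.0 and 14.2 CPM with both drugs, against 1.70, 1.98, 1.87 and 1.76 CPM with ketanserin alone. The groups lay far apart, at means of 18.5 ± 4.67 and 1.83 ± 0.122 CPM (SD, n = 4 each).

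The summed Faah counts did not pass the test in this comparison. In a fit chosen after the data were seen, with records of 1 symbol summed before edgeR's test on 17290 genes, the log2 fold change of Faah was 3.33 (SE 0.604) and its adjusted p was 0.173. In the same fit, ketanserin alone lay below vehicle by -3.99 on the log2 scale with an edgeR adjusted p of 0.0174, and both drugs lay -0.66 from vehicle. These comparisons share the ketanserin or vehicle libraries. Across the study 7 of 28 libraries had a summed level under 5 CPM, at most 4.09 CPM, and the other 21 had 13.6 to 44.2 CPM. The low libraries were all 4 with ketanserin 3 mg/kg alone, 2 with ketanserin 1 mg/kg alone and 1 with both drugs at 1 mg/kg. Low levels were thus seen in single animals of other groups, and in no library given vehicle, psilocybin alone or both drugs at 3 mg/kg. Over all 12 endocannabinoid records tested, both of Faah included, 6 lay above and 6 below ketanserin alone (median -0.02). The cause of the levels was not tested.

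Levels far apart between libraries were also seen in other records, which were chosen after their values were seen. LOC100911575, annotated as a 60S acidic ribosomal protein P2-like gene (chromosome 1, 214428526 to 214430515, rn6), had 52.6, 87.3, 51.7 and 46.9 CPM with both drugs, against 3.52, 2.50, 16.0 and 3.21 CPM with ketanserin alone. Its log2 fold change was 3.25 (SE 0.617) with the smallest edgeR adjusted p of the comparison, 0.375, and it was the 1 gene called by DESeq2 (adjusted p 0.00136). It was also at 26.6 to 51.3 CPM with ketanserin 1 mg/kg alone, and at 4.17 to 53.5 CPM with both drugs at 1 mg/kg, against 2.10 to 4.12 CPM with vehicle. The record of Rplp2 itself held at most 1 count in these 8 libraries, and reads of such near-identical genes can have been divided between copies, so that its level is uncertain.

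An unnamed transcript on chromosome 20 (19484399 to 19485845, rn6), described in the table as similar to the mitochondrial NADH dehydrogenase chain 4, went the other way. It had 36.7, 50.8, 58.5 and 42.9 CPM with both drugs, against 1160, 409, 1080 and 741 CPM with ketanserin alone (log2 fold change -4.17, SE 1.05). Mt-nd4, the gene of that chain on the mitochondrial genome, had 718, 835, 708 and 910 CPM with both drugs, against 326, 643, 308 and 516 CPM with ketanserin alone (0.82, SE 0.263). Neither pair of groups overlapped. The sum of the 2 records was 755, 886, 767 and 953 CPM, against 1490, 1050, 1390 and 1260 CPM. Both levels of the chromosome 20 transcript occurred within the vehicle group, at 55.5 to 886 CPM, and within psilocybin 3 mg/kg alone, at 56.9 to 1170 CPM. The other 12 mitochondrial genome genes had log2 fold changes of -0.13 to 0.10.

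Gorasp2, a Golgi stacking protein, had 2 records as well. Its main record lay at 18.3, 26.2, 21.8 and 18.3 CPM with both drugs, against 37.0, 27.1, 33.8 and 27.9 CPM with ketanserin alone. Summed over both records the groups overlapped, at 19.1 to 35.2 CPM and 28.7 to 45.6 CPM, and the log2 fold change was -0.51 (SE 0.192).

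**Figure D2:**
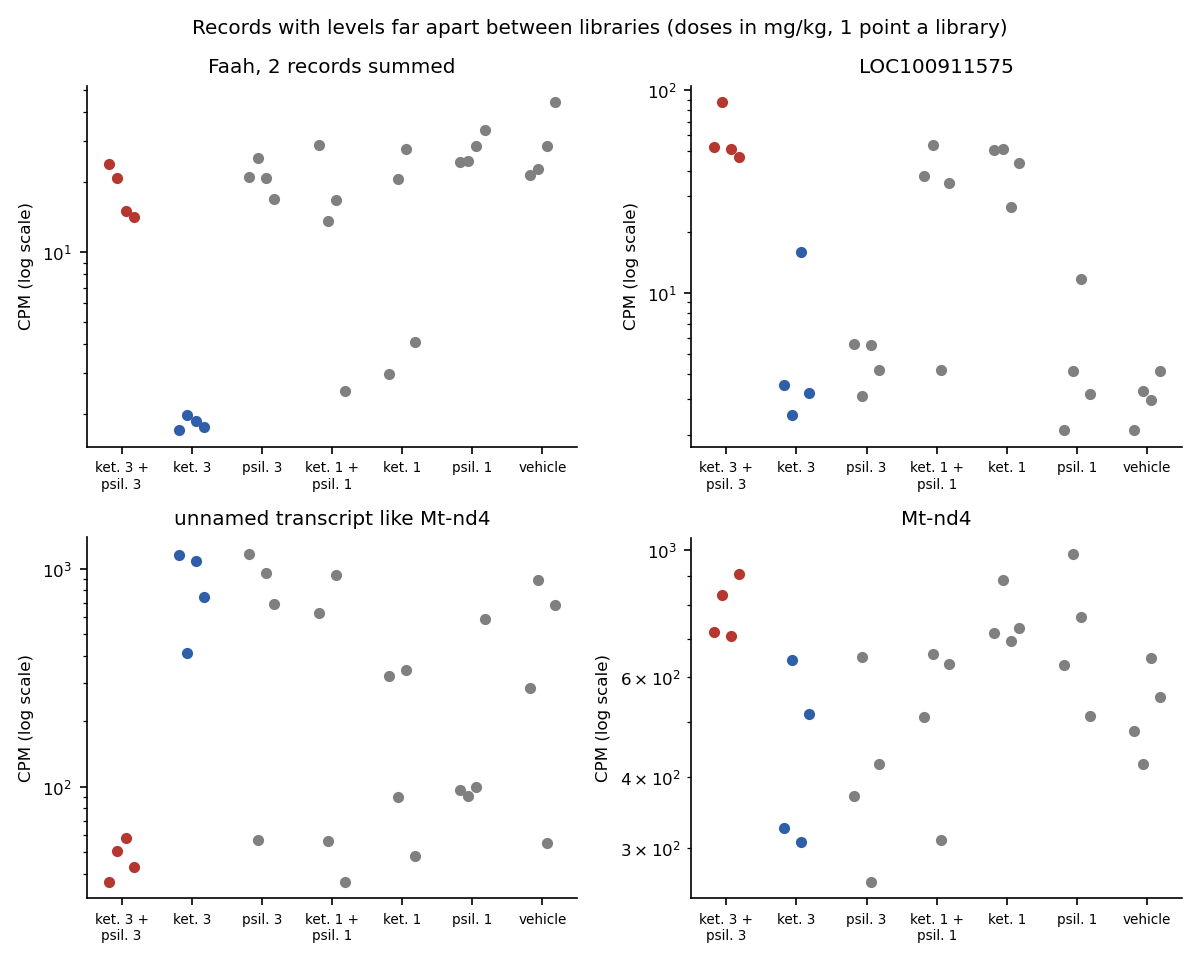
CPM per library on a log axis for Faah (both records summed), LOC100911575, the unnamed transcript of chromosome 20 that resembles Mt-nd4, and Mt-nd4 in the 7 groups of the study, with red for both drugs at 3 mg/kg, blue for ketanserin 3 mg/kg alone and grey for the other groups. The red and blue points do not overlap in any panel, and the grey groups hold libraries at both levels of the unnamed transcript.

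Serotonin receptor genes mostly lay below ketanserin alone, with none past the threshold. Htr2a (chromosome 15, 56666012 to 56735382, rn6) had 32.4, 25.4, 30.1 and 35.5 CPM with both drugs, against 45.2, 25.7, 35.2 and 30.8 CPM with ketanserin alone. The ranges overlapped, with the highest value in 1 ketanserin library, and the difference was -0.15 log2 units (SE 0.163, 95% interval -0.48 to 0.19). It was -0.22 without the distant library and 0.02 without replicate 1 of ketanserin alone, so that its sign rested on that library. Htr2c, the serotonin 2C receptor (chromosome X, 118084890 to 118318039), had 20.7, 23.0, 10.4 and 11.7 CPM with both drugs, against 22.3, 25.0, 16.5 and 18.8 CPM with ketanserin alone. The groups overlapped, and both drugs differed from ketanserin alone by -0.33 log2 units (SE 0.250, 95% interval -0.85 to 0.18), or by -0.20 without the distant library. Both receptors had an edgeR adjusted p of 1.

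Over the 9 serotonin receptor genes tested, 2 lay above and 7 below ketanserin alone (median -0.14), where 51.9% of all genes tested lay above. Without the distant library 0 lay above and 9 below (median -0.22), against 51.2% above over all genes. Of these 9, Htr3a was at -0.00, and Htr1d and Htr1f were scarce, at means of 0.443 and 0.61 CPM with both drugs. Potassium channel, synaptic structure and GABA-A receptor lists, given below, likewise lay lower without that library. With all libraries, 8 of the 9 lay above vehicle with ketanserin alone (median 0.20), and 6 with both drugs (median 0.07). These contrasts share the ketanserin or the combined libraries with the main one. Htr1a, Htr1b and Htr5a, which encode receptors coupled to inhibitory G proteins, had log2 fold changes of -0.06, -0.02 and 0.21 with the distant library and -0.42, -0.45 and -0.02 without it. The distant library held the highest level of Htr1b in the 8, at 5.56 CPM, against 2.16 to 2.57 CPM in the rest of its group and 3.02 to 3.25 CPM with ketanserin alone. The other 9 tested targets of ketanserin, adrenergic and histamine receptors among them, had 4 above and 5 below (median -0.03). Without the distant library 6 lay above and 3 below (median 0.04). Hrh1, the histamine H1 receptor, differed by 0.32 (SE 0.310) with that library, where it stood at 8.54 CPM, and by 0.04 without it. Adra1a, the alpha-1A adrenergic receptor, stood there at 9.53 CPM and differed by 0.73 (SE 0.600) with it and 0.08 without it.

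Immediate early genes leaned below ketanserin alone. Of 29 tested, 8 lay above and 21 below (median -0.09), and without the distant library 9 above and 20 below (median -0.10). The mean level of the list overlapped between the groups. Relative to the mean of 28 libraries it was -0.33, -0.05, 0.22 and -0.04 log2 units with both drugs, against -0.15, 0.30, 0.12 and -0.16 with ketanserin alone. None of the 29 genes passed edgeR's adjusted threshold. At an unadjusted p under 0.05 there were 4 below and 0 above, where 1.65% and 1.76% of all genes tested were below and above. The 4 were Sgk1, Csrnp1, Jun and Dusp6. Csrnp1, a nuclear factor of the early response, had 5.69, 9.87, 9.24 and 7.70 CPM with both drugs, against 8.80, 13.1, 12.2 and 13.2 CPM with ketanserin alone (log2 fold change -0.54, SE 0.222, and -0.52 without the distant library). Dusp6, a phosphatase that switches off ERK, had 20.8, 24.7, 27.1 and 26 CPM, against 28.6, 28.8, 34.3 and 30.0 CPM (-0.30, SE 0.136). Dusp6 did not overlap between the groups, and Csrnp1 overlapped through replicate 1 of ketanserin alone.

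Sgk1, a kinase induced by glucocorticoids and by activity, had 30.5, 28.3, 33.6 and 22.9 CPM with both drugs, against 33.0, 38.2, 37.6 and 35.5 CPM with ketanserin alone (-0.32, SE 0.120, and -0.23 without the distant library, its lowest value). Jun, a subunit of AP-1, differed by -0.28 (SE 0.114) and by -0.20 without that library. The classical activity markers were spread widely within each group. Fos, the other subunit of AP-1, had 4.11, 6.49, 17.0 and 15.7 CPM with both drugs, against 6.91, 14.3, 10.6 and 6.49 CPM with ketanserin alone (0.17, SE 0.426, and -0.06 without the distant library). Arc, a regulator of AMPA receptor endocytosis, had 33.7, 142, 133 and 111 CPM, against 48.4, 156, 103 and 83.9 CPM (0.10, SE 0.440), and Egr1 differed by -0.09 (SE 0.145) and by -0.20 without that library. The spread within each group was wider than the difference.

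**Figure D3:**
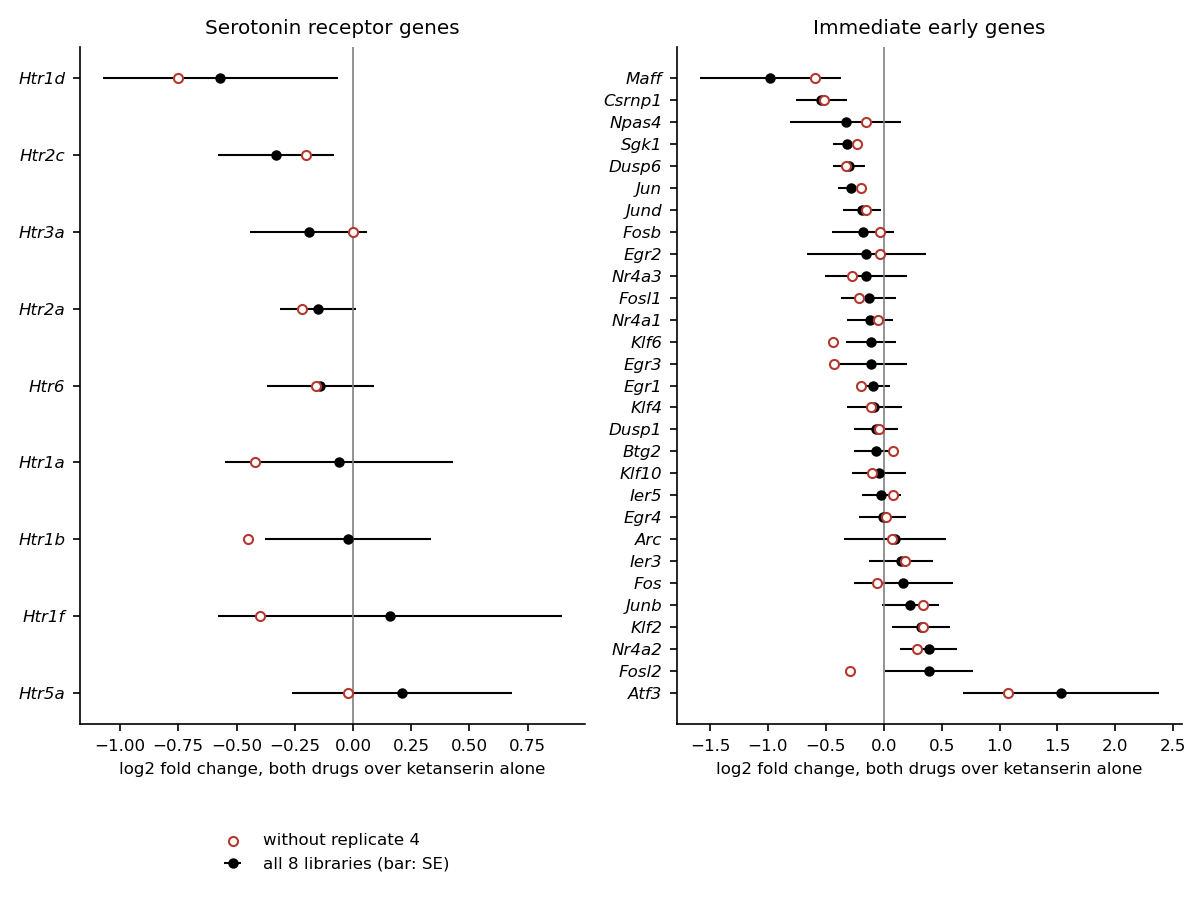
Log2 fold change of both drugs over ketanserin alone for 9 serotonin receptor genes (left) and 29 immediate early genes (right); black points and bars are the fit of all libraries with its SE, and open red points the fit without the distant library. All 9 open points on the left lie at or below 0, and 20 of 29 on the right lie below it.

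Ketanserin alone and psilocybin alone gave other values for the same genes. The median of the immediate early genes was 0.21 for ketanserin alone against vehicle and 0.14 for psilocybin 3 mg/kg against vehicle, and the difference of differences (both drugs minus ketanserin alone, minus the same for psilocybin against vehicle) had a median of -0.24. These contrasts share libraries with the main one. No immediate early gene passed edgeR in the difference of differences, where Csrnp1 had -0.88 (SE 0.314, adjusted p 0.993).

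Late activity and neurotrophin genes gave 9 above and 12 below (median -0.09), and 6 above and 15 below without the distant library (median -0.10). Nptx2, a secreted pentraxin that clusters AMPA receptors, had 61.7, 82.9, 78.4 and 73.0 CPM with both drugs, against 77.2, 106, 91.6 and 101 CPM with ketanserin alone (-0.34, SE 0.139, and -0.34 without that library). The groups overlapped through 2 libraries with both drugs and replicate 1 of ketanserin alone. Bdnf, a neurotrophin released with activity, had 24.2, 17.8, 17.6 and 30.3 CPM, against 24.2, 29.1, 25.4 and 21.2 CPM (-0.15, SE 0.193, and -0.33 without the distant library). Of 17 glucocorticoid receptor and response genes, 7 lay above and 10 below (median -0.07), and 3 above and 14 below without the distant library (median -0.13). Tsc22d3, also called Gilz, a glucocorticoid-induced repressor, differed by -0.27 (SE 0.106), and Fkbp5, a co-chaperone of the glucocorticoid receptor, by -0.09 (SE 0.0991).

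For genes of synapses and channels the distant library set the direction of the lists. Potassium channel genes had 22 of 34 above ketanserin alone with it (median 0.06) and 4 of 34 without it (median -0.11). Synaptic structure genes had 18 of 33 above with it (median 0.10) and 6 of 33 without it (median -0.11), and GABA-A receptor genes 9 of 13 (median 0.06) and 3 of 13 (median -0.16). NMDA receptor genes had 5 of 7 above with it (median 0.11) and 3 of 7 without it (median -0.05). Grin2b, the 2B subunit, showed this in a single gene, with 20.7, 26.4, 28.8 and 119 CPM with both drugs, against 20.2, 33.3, 40.8 and 19.8 CPM with ketanserin alone. Its log2 fold change was 0.77 (SE 0.409) with the distant library and -0.17 without it. Kcnq3, a subunit of the M-current channel, likewise had 49.3 CPM there and 6.69 to 14.2 CPM in the other libraries with both drugs, against 9.07 to 19.4 CPM with ketanserin alone. In each of these lists replicate 2 was the lowest library with both drugs. Relative to the mean of 28 libraries it stood at -0.49 log2 units for potassium channels, -0.41 for synaptic structure, -0.58 for GABA-A and -0.26 for NMDA receptors. Replicates 1 and 3 lay within the range of ketanserin alone in all of them.

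Metabotropic glutamate receptors and AMPA receptor genes did not turn with that library. Of 7 metabotropic receptor genes 2 lay above and 5 below (median -0.18), and 1 above and 6 below without the distant library (median -0.26). Grm2, a presynaptic receptor that restrains glutamate release, had 124, 126, 84.6 and 99.2 CPM with both drugs, against 145, 120, 130 and 142 CPM with ketanserin alone (-0.31, SE 0.230). Grm8 differed by -0.29 (SE 0.146). AMPA receptor genes had 4 of 10 above with the distant library and 3 of 10 without it (median -0.04 in both).

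Ribosomal, respiration and neuropeptide lists ran opposite to the channel and synapse lists when the distant library was left out. Ribosomal protein genes had 70 of 86 above ketanserin alone with it (median 0.12) and 79 of 86 without it (median 0.24). Nuclear genes of mitochondrial respiration had 52 of 73 above with it (median 0.06) and 66 of 73 without it (median 0.22), and neuropeptide genes 5 of 14 (median -0.02) and 11 of 14 (median 0.12). The mean level of the ribosomal list relative to the mean of 28 libraries was -0.01, 0.43, -0.14 and -0.60 log2 units with both drugs, against 0.05, -0.35, -0.47 and 0.02 with ketanserin alone. The groups overlapped, with replicate 2 highest and the distant library lowest of the 8. The potassium channel list ran the other way in the same libraries, at 0.02, -0.49, 0.17 and 0.70 with both drugs, against -0.15, 0.12, 0.34 and -0.07 with ketanserin alone.

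These list levels went with a property of whole libraries. Spearman's correlation across genes between a gene's length and its level relative to the mean of 28 libraries was 0.0478, -0.304, 0.150 and 0.278 in replicates 1 to 4 with both drugs, against -0.152, 0.138, 0.283 and -0.152 with ketanserin alone. Genes are not independent replicates, and the value is a description of each library. The 3 libraries with a negative value, replicate 2 with both drugs and replicates 1 and 4 with ketanserin alone, held the 3 highest ribosomal levels. The part of this length dependence in the list medians was not tested.

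**Figure D4:**
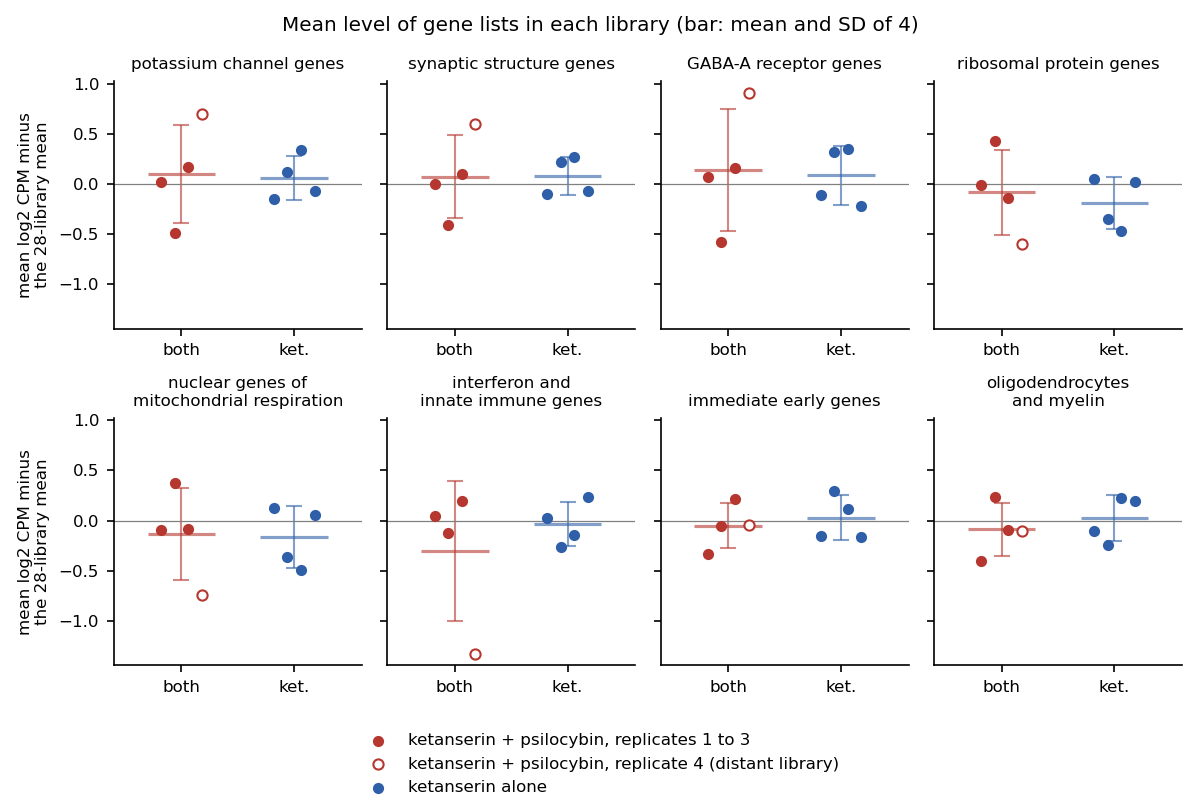
Mean log2 CPM of 8 gene lists in each library, relative to the mean of all 28 libraries, with both drugs in red (open for the distant library) and ketanserin alone in blue; lines and bars are the mean and SD of 4. Channel, synapse and receptor lists are highest, and ribosomal, respiration and interferon lists lowest, in the distant library.

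Interferon and innate immune genes gave 7 of 19 above ketanserin alone (median -0.08), and 13 of 19 without the distant library (median 0.08). The mean level of the list was -1.33 log2 units in the distant library and -0.26 to 0.32 in the other 27. Ifitm3, an antiviral membrane protein, had 9.27, 13.3, 8.19 and 0 CPM with both drugs, against 7.76, 7.49, 5.80 and 10.3 CPM with ketanserin alone. A count of 0 in that library allows up to 0.229 CPM (3 counts, for counting error only). Isg15, Irf7 and Usp18, also induced by interferon, were at 0 in that library and in no other of the 8. Not all members were low there. Mx2, a dynamin-like antiviral GTPase, had 15.9, 16.3, 24.1 and 17.6 CPM with both drugs, against 12.3, 13.7, 15.0 and 13.6 CPM with ketanserin alone (0.44, SE 0.188, and 0.46 without that library). Its groups did not overlap, and its edgeR adjusted p was 1. Rsad2, also induced by interferon, was highest in the distant library. It had 2.42, 1.08, 2.85 and 8.39 CPM with both drugs, against 1.17 to 2.44 CPM with ketanserin alone. The log2 fold change of Rsad2 was 0.83 (SE 0.467) and 0.04 without that library.

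Heat shock genes had 3 of 13 above and endoplasmic reticulum chaperone genes 4 of 16 (median -0.04 in both), and 5 of 13 and 5 of 16 without the distant library (medians -0.02 and -0.05). Pdia3, a disulfide isomerase of the endoplasmic reticulum, differed by -0.19 (SE 0.0813). Dnajb6, an Hsp40 co-chaperone, had 116, 110, 113 and 131 CPM with both drugs, against 140, 144, 137 and 125 CPM with ketanserin alone, and differed by -0.22 (SE 0.0784) with the distant library and -0.27 without it. Each had an edgeR adjusted p of 1.

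**Figure D5:**
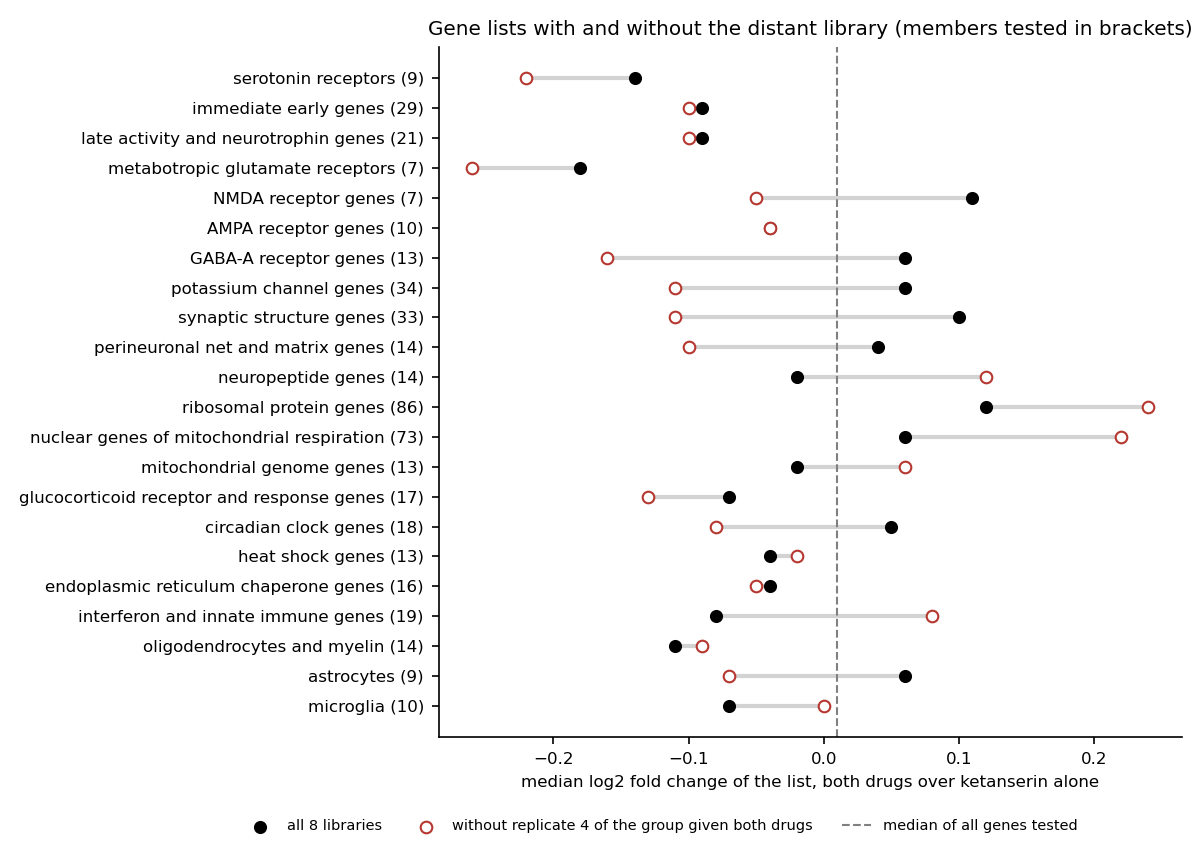
Median log2 fold change of both drugs over ketanserin alone for 22 gene lists, with the number of members tested in brackets, for all 8 libraries (black) and without the distant library (open red); the dashed line is the median of all genes tested, 0.01. Serotonin receptor, immediate early gene and myelin lists stay on the left of the line, whereas GABA-A, NMDA, potassium channel, synaptic, clock and astrocyte lists move from the right of it to the left when the distant library is left out.

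Cell type markers gave no difference past the threshold either. Myelin genes had 3 of 14 above ketanserin alone (median -0.11) and 5 of 14 without the distant library (median -0.09). Mbp, myelin basic protein, had 1640, 3360, 2030 and 1960 CPM with both drugs, against 2350, 1890, 2660 and 2920 CPM with ketanserin alone (-0.13, SE 0.370, and -0.07 without the distant library), so that the spread within a group was wider than the difference. For psilocybin 3 mg/kg against vehicle 0 of 14 lay above (median -0.39), and the difference of differences was above 0 for 14 of 14 (median 0.30), but vehicle libraries themselves ranged from -0.47 to 0.66 log2 units in their mean myelin level. Excitatory neuron markers had 1 of 5 above (median -0.05), deep layer markers 8 of 13 (median 0.05) and interneuron markers 5 of 11 (median -0.01), and without the distant library these were 1 of 5 (median -0.05), 8 of 13 (median 0.07) and 6 of 11 (median 0.05). Upper layer markers had 4 of 7 above with it (median 0.01) and 2 of 7 without it (median -0.18). Astrocyte markers had 8 of 9 above with the distant library (median 0.06) and 4 of 9 without it (median -0.07).

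Markers of neighbouring tissue overlapped between the groups in their summed level. Striatum markers had 6 of 10 above (median 0.09), and 8 of 10 without the distant library (median 0.13). Their summed level was 366 to 519 CPM with both drugs and 394 to 417 CPM with ketanserin alone. Olfactory markers had 5 of 6 above (median 0.14), and 4 of 6 without the distant library (median 0.05), at 92.9 to 129 CPM and 106 to 118 CPM. Thalamus and habenula markers had 4 of 4 above (median 0.25), and 3 of 4 without the distant library (median 0.12), at 21.7 to 38.0 CPM and 18 to 27.2 CPM. Meningeal markers had 5 of 10 above (median 0.04), hippocampal markers 2 of 5 (median -0.04), choroid plexus and ependymal markers 2 of 3 (median 0.09) and endothelial and mural markers 6 of 8 (median 0.13). Without the distant library these were 6 of 10 (median 0.05), 1 of 5 (median -0.04), 1 of 3 (median -0.07) and 6 of 8 (median 0.02). Their part in the results was not tested.

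Whether psilocybin acted differently after ketanserin was tested as the difference of differences, and no gene was called (0%). The smallest edgeR adjusted p was 0.993, with 557 genes at an unadjusted p under 0.05, DESeq2 called 0, and limma with library weights called 1, Pfkl, the liver-type phosphofructokinase. C2cd4c had the lowest p, with 36.8, 41.0, 35.7 and 30.0 CPM with both drugs, against 42.7, 54.8, 38.9 and 36.9 CPM with ketanserin alone. Psilocybin alone gave 43.5, 49.0, 46.9 and 49.4 CPM, against 33.9, 29.4, 33.8 and 31.7 CPM with vehicle. After ketanserin the gene thus had a lower mean than its reference, with overlapping groups (-0.27, SE 0.127), and without ketanserin it lay above (0.55, SE 0.128). Against vehicle it differed by 0.43 with ketanserin alone and by 0.16 with both drugs. Its difference of differences was -0.82 (SE 0.180) and -0.75 without the distant library. Myom2 ran the other way, at 2.40 (SE 0.554) and 1.85 without that library, and Serhl2, a serine hydrolase-like gene, at 1.81 (SE 0.439) and 1.92. For Htr2a the difference of differences was -0.16 (SE 0.230) and for Htr2c -0.72 (SE 0.355), each with an edgeR adjusted p of 0.993.

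The dose of both drugs was tested in the same way, and no gene was called between 3 and 1 mg/kg (0%). The smallest edgeR adjusted p was 1, with 470 genes at an unadjusted p under 0.05, and DESeq2 and limma with library weights both called 0. Zc4h2 had 20.0, 18.3, 16.6 and 14.6 CPM with both drugs at 3 mg/kg, against 26.2, 24.7, 22 and 23.1 CPM with ketanserin 3 mg/kg alone. At 1 mg/kg it had 27, 27.8, 23.1 and 19.6 CPM with both drugs, against 22.1, 20.6, 20.6 and 16.9 CPM with ketanserin alone. The differences had opposite signs, -0.47 and 0.28, and differed by -0.75 (SE 0.181), or -0.67 without the distant library. Slc20a2, a phosphate transporter, gave -0.49 (SE 0.131) for the same difference, from -0.18 at 3 mg/kg and 0.31 at 1 mg/kg. Tsc22d4 gave 3.18 (SE 0.798) and 2.10 without the distant library. In that library it stood at 14.5 CPM, against 1.64 to 5.80 CPM with ketanserin 3 mg/kg alone. Its log2 fold change at 3 mg/kg was 0.78 with the distant library and -0.30 without it. At 1 mg/kg the log2 fold change of Tsc22d4 was -2.40. It had 0.685 to 1.21 CPM with both drugs at that dose, against 1.46 to 10.3 CPM with ketanserin alone.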

How the data were processed

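Libraries from poly-A RNA of rat prefrontal cortex kept strand through dUTP marking, per the labels' protocols. The authors deposited raw counts per gene for 36387 genes and assembled transcripts of the rn6 build, 3842 of them unnamed. Tools named in the submitters' processing notes are featureCounts 1.5.0-p3, HISAT2 2.0.5 and StringTie 1.3.3b. The sources used here do not state if counting used strand, and records of overlapping or near-identical genes may share reads. The authors' FPKM values were not used.

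The edgeR package (4.0.16, in R 4.3.3) was applied to the counts. Genes were kept by filterByExpr, libraries were scaled by TMM, and 1 model with 7 groups was fitted to all 28 libraries (21 residual degrees of freedom). The test was the robust quasi-likelihood test, two-sided, with Benjamini-Hochberg adjustment over all genes tested and calls at an adjusted p under 0.05. Levels are CPM scaled by TMM, and log2 CPM used a prior count of 2. Labels number no replicates, so numbers follow accession order and pair nothing. The 8 libraries differed beyond sampling noise, with a chi-square per gene of 5.90 to 131 between pairs. The script was tested on simulated counts.

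Named genes were the 8 of lowest p in each direction that kept their sign without the distant library, the 6 in each direction without it, the 2 of lowest p in each of 38 lists, the 3 of lowest p in the interaction and in the dose difference, Htr2a, Htr2c, and the 5 farthest above and the 5 farthest below in the distant library, all with a symbol that is not only a clone or LOC number and a mean log2 CPM of at least 0. Members of the comparison, gene lists and rules were chosen with earlier results of these data known. Other list members are named for their role. Lists were described by counts and medians, without a test. Alternatives were RLE scaling, no filter, DESeq2 1.42.0, limma 3.58.1 with library weights, a fit of the compared groups only, unnamed transcripts left out, records of 1 symbol summed (chosen after the data were seen) and each library left out. Promoter sequence is from RefSeq (GRCr8), where Arntl is listed as Bmal1. The other coordinates are those of the deposited table.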

Additional observations from a re-analysis of the deposited data

Results flagged for a closer look

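In 326 sets of 4 values (log2 levels of named genes and lists, and library measures, in each of the 2 groups), a value was set apart when its gap to the nearest of the other 3, divided by the range, was above Dixon's critical value. Chance sets apart about 1 in 20 sets that are independent and not chosen by their values. Here 26 were found, of which 16 were due to the distant library. Psme2, Dnajc17, Mustn1, Ifitm3 and Rad1 were named because they lay farthest below in that library, so their flags followed from that choice. The library itself was singled out by its distance from the others, so its flags in library measures restate that. Shkbp1 was named by its low p in the fit without that library, so its flag is not independent of the choice either. The sets also share libraries, so that the 26 cannot be set against the chance rate.

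In the group given both drugs, the distant library lay apart in the share of unnamed transcripts (0.904 of the range), in its median correlation with the other libraries (0.878), in the number of genes above all other libraries (0.836) and in the number of genes at 0 where the others had at least 20 counts (1). Its levels were lowest for Cacng3 (0.888), an AMPA receptor auxiliary subunit, Neurod6 (0.861), a transcription factor of excitatory neurons, Psme2 (0.867), Shkbp1 (0.856), Dnajc17 (0.895), Mustn1 (0.886), Ifitm3 (0.896) and Rad1 (0.917). They were highest for Dlx2 (0.891) and Plin3 (0.911). Faah was set apart in both of its records, at 0.873 and 0.892, low in one and high in the other.

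Replicate 2 of that group was highest for Olig1 (0.856), a factor of the oligodendrocyte lineage, for the mitochondrial genome list (0.8291) and for the share of counts in the 100 most abundant genes (0.882). Replicate 3 was highest for Dock8 (0.832). With ketanserin alone, replicate 3 was highest for Hapln1 (0.840), a link protein of perineuronal nets, for Hrh1 (0.865) and for the endothelial and mural list (0.983). Replicate 2 was highest for the AMPA receptor list (0.913) and lowest for Mmp9 (0.910), a matrix protease, and replicate 1 was lowest for Rsad2 (0.859). The causes were not tested.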

How the results depend on the processing

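The count of genes called higher became 1 with DESeq2, 1 with limma and library weights, and 0 to 1 when single libraries were left out. The 1 was LOC100911575 without replicate 3 of ketanserin alone, at a log2 fold change of 4.27 and an edgeR adjusted p of 0.0128. The count called lower became 1 in the fit of the compared groups only (the unnamed transcript of chromosome 20, log2 fold change -4.16, edgeR adjusted p 0.00508) and was 0 to 0 over left-out libraries. The drug interaction gave 1 with limma and library weights, and the dose difference 0 under all alternatives. RLE scaling, no filter, unnamed transcripts left out and records of 1 symbol summed changed none of these 4 counts. With all libraries, genes at an unadjusted p under 0.05 numbered 307 higher and 287 lower, from 92 and 77 in the fit of the compared groups only to 708 and 647 with limma and library weights. No paired analysis was possible because the labels number no replicates.

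Of 1690 values of 113 named genes under alternatives, 1649 kept direction and side of the threshold, 3 passed it and 38 turned sign, in 29 genes, 17 of them without the distant library. With limma and library weights, which gave the distant library a weight of 0.123, log2 fold changes turned to 0.04 for Gabra5, 0.10 for Pdgfra, -0.17 for Gabrb1, 0.09 for Rad1, -0.37 for Itgb8, -0.39 for Zc3h12b, -0.06 for Tsc22d4 and -0.51 for Nts. Over left-out libraries, log2 fold changes that turned with the distant library ran from -0.17 to 1.02 for Grin2b, -0.66 to 0.17 for Psme2, -0.21 to 0.80 for Col1a2, -0.26 to 0.90 for Kcnq3, -0.62 to 0.15 for Dnajc17, -0.59 to 0.23 for Mustn1, -0.23 to 0.25 for Aqp1, -0.16 to 0.85 for Gabrb1, -0.42 to 0.39 for Ifitm3, -0.55 to 0.15 for Rad1, -0.14 to 1.83 for Zak, -0.34 to 2.0 for Ston2, -0.89 to 1.39 for Itgb8, -0.79 to 1.18 for Zc3h12b, -0.30 to 1.24 for Tsc22d4, -0.31 to 0.66 for Zbtb20 and -0.28 to 1.47 for Xkr6. Those that turned with other libraries ran from -0.34 to 0.01 for Nfix, -0.26 to 0.02 for Htr2a, -0.01 to 0.26 for Cnih3, -0.03 to 0.49 for Prkcd, -0.56 to 4.02 for Ndufa1, -0.25 to 0.08 for Mdga1, -0.20 to 1.10 for Hsp90aa1, -0.51 to 0.06 for Prox1 and -0.30 to 0.05 for Ccdc153. None of these genes was called in any fit, and the cause of each turn was not tested.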

Other observations

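Other genes came among those of lowest p only when the distant library was left out. In each of those given here its level was the one of its group farthest towards or beyond ketanserin alone. None was called. Shkbp1, which encodes a binding partner of the adaptor SH3KBP1, had 20.8, 18.9, 19.9 and 10.9 CPM with both drugs, against 12.8, 14.2, 11.8 and 14.8 CPM with ketanserin alone. Its log2 fold change was 0.56 without the distant library (edgeR adjusted p 0.669) and 0.39 with it. Zfp94, a zinc finger gene, had 63.2, 54.8, 64.5 and 40.5 CPM, against 45.1, 45.4, 41.0 and 44.2 CPM (0.47 and 0.34). Zbtb7c, a BTB zinc finger gene, gave 0.65 and 0.50. In the other direction, Nfix, a nuclear factor I gene, had 119, 105, 110 and 197 CPM, against 126, 159, 155 and 122 CPM (-0.34 without and -0.09 with the distant library). Il1rap, the accessory chain of the interleukin 1 receptor, had 19.1, 14.9, 15.2 and 30.6 CPM, against 24.8, 22, 18.7 and 23.3 CPM (-0.44 and -0.16). Without the distant library the groups did not overlap in Shkbp1, Zfp94, Zbtb7c and Nfix, and they overlapped in Il1rap through 1 library of each. These genes were chosen by their low p in that fit, which favours separate groups. The share of all genes without overlap was not counted for that smaller set of libraries. The edgeR adjusted p of Zfp94, Zbtb7c, Nfix and Il1rap was 1 with and without the distant library.

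The distant library lay above all other 27 libraries in 3785 genes and below them in 4949, against at most 2478 and 2129 in any other library. Among the farthest above were Itgb8, an integrin that activates TGF-beta, at 21.0 CPM, against 0.541 to 2.73 CPM in the other libraries with both drugs, and Ston2, an endocytic adaptor, at 25.9 CPM, against 0.744 to 4.28 CPM. Among the farthest below were Rad1, a subunit of the DNA damage clamp, at 0 CPM, against 6.35 to 9.12 CPM, and Psme2, a proteasome activator subunit, at 0.229 CPM, against 16.7 to 30.1 CPM.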
